A study of Homo sapiens with 14 samples.

Results

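The genes described here are 10 components and targets of canonical Wnt signalling: CTNNB1, APC, AXIN2, RNF43, ZNRF3, NKD1, NOTUM, LEF1, TCF7 and TCF7L2. They were chosen by symbol as core and target genes of the beta-catenin pathway. All 10 were found, among 28159 genes that each had 1 window of 1000 bp at a transcription start site. RNA polymerase II phosphorylated on Ser5 of its C-terminal domain, the form concentrated near the starts of transcribed genes, was precipitated with antibody 3E8 from wild-type HCT116 and sequenced (ChIP-seq). HCT116 is an established line of colorectal carcinoma that carries a stabilising CTNNB1 mutation and intact p53. Every group, controls included, went through trypsin and electroporation and then 3 hours in fresh medium. The control group received 0.1% DMSO, the solvent, with water in place of peptide. The Nutlin3a group received 10 µM Nutlin3a, which frees p53 from MDM2, again with water. The groups called DMSO with peptide and Nutlin3a with peptide received the same agents after electroporation with 10 µM of a bivalent stapled peptide, and a further 200 nM was put into their medium. Its intended action, going by the series title, is to keep p53 from binding Mediator. There were 2 ChIP libraries (replicates 1 and 2) in each group without peptide and 1 (replicate 2) in each group with it. Each of the 4 groups also had 2 inputs, sheared chromatin sequenced without precipitation. The labels do not say that replicates were separate cultures of this 1 line, so p-values measure the spread between these libraries, which may be technical.

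In canonical Wnt signalling a secreted Wnt ligand binds a Frizzled receptor and LRP5 or LRP6, which stops a destruction complex of APC, an Axin scaffold and kinases from marking beta-catenin for degradation. Beta-catenin, the product of CTNNB1, then enters the nucleus and binds the HMG-box factors TCF7, TCF7L1, TCF7L2 and LEF1 at target genes. Many targets are brakes. AXIN2 rebuilds the destruction complex, RNF43 and ZNRF3 are membrane ubiquitin ligases that remove Frizzled, NKD1 binds Dishevelled and dampens the signal, and NOTUM is a secreted enzyme that strips the lipid from Wnt ligands. In the intestine the pathway maintains the stem cells of the crypt, and mutations of APC or CTNNB1 switch it on in most colorectal tumours.

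The 4 members whose RefSeq promoter lay inside the counted window span the range from dense to sparse CG content, and their sequences are shown because they are the DNA over which the reads described next were counted. Each is 300 bases, from 250 before to 50 after an annotated start (RefSeq, GRCh38.p14), written 5′ to 3′ on the gene's strand with every CG dinucleotide in capitals. CTNNB1 is at chr3:41199255-41199554 on the plus strand, APC at chr5:112707248-112707547 plus, TCF7L2 at chr10:112949997-112950296 plus and RNF43 at chr17:58417485-58417784 minus.
CTNNB1: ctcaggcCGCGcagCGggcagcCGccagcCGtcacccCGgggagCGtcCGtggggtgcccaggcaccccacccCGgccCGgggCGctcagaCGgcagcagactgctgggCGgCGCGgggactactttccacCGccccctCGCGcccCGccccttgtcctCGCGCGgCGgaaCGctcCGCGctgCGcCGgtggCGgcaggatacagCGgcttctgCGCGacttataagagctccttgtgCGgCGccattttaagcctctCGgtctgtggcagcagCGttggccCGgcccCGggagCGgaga
TCF7L2: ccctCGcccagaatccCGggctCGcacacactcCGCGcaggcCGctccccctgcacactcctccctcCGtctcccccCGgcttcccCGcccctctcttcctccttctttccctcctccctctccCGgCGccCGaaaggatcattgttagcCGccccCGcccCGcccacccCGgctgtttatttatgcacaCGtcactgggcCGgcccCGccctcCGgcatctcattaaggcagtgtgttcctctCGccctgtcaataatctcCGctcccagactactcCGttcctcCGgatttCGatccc
APC: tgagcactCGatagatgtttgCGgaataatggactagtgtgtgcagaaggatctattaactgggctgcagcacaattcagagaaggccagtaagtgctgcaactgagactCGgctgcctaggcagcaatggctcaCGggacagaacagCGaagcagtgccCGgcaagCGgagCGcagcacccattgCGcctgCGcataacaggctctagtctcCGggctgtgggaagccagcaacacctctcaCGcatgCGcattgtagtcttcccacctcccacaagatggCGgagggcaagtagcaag
RNF43: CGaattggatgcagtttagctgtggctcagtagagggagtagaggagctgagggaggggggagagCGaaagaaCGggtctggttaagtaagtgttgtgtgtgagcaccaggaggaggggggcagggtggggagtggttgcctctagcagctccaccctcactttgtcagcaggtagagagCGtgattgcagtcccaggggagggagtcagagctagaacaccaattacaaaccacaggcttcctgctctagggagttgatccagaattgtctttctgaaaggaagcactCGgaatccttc
The CTNNB1 promoter held 39 CG dinucleotides, more than 91.3% of all 35116 promoters of that length, against a median of 14. TCF7L2 held 25 (more than 68.0%), APC 14 (more than 49.7%) and RNF43 only 5 (more than 29.6%). The GC box GGGCGG, searched on both strands, occurred 3 times in CTNNB1 and 5 times in TCF7L2 and was not found in APC or RNF43, while 45.0% of all promoters held it. None of the 4 contained a TCF/LEF heptamer (CTTTG followed by AT, AA, TT or TA, on either strand), which 13.8% of promoters held, or TATAAA, which 11.5% held. A full p53 response element, present in 0.0285% of promoters, was not found either. These are letter matches in a 300-base stretch and say nothing about binding. In all, 6 of 10 members had a RefSeq promoter entry. TCF7 and LEF1 had entries outside their windows, 233 bp away for the nearer TCF7 start and 2332 bp away for LEF1. APC, TCF7L2 and RNF43 had further starts 29688 bp, 175684 bp and 14514 bp or more outside the counted window. Reads at those starts, and at the starts of the TCF7 and LEF1 entries, are not in the values below. AXIN2, ZNRF3, NKD1 and NOTUM had no entry.

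The windows, in hg38 and 1-based, were chr3:41199205-41200204 for CTNNB1, chr5:112707198-112708197 for APC, chr17:65561349-65562348 for AXIN2 and chr17:58417235-58418234 for RNF43. Those of ZNRF3, NKD1 and NOTUM were chr22:28883272-28884271, chr16:50548096-50549095 and chr17:81960888-81961887. The factor genes had chr4:108168633-108169632 (LEF1), chr5:134114381-134115380 (TCF7) and chr10:112949950-112950949 (TCF7L2). Apart from TCF7, each window covers the annotated start of its gene, which for LEF1 is not the start of its promoter entry. The TCF7 window lies inside the gene and contains neither start of its promoter entries. No member window overlapped another window of the table, although 22.0% of all windows did. The TCF7 window also overlaps the annotated extent of VDAC1, a mitochondrial porin gene on the opposite strand. The TCF7L2 window overlaps the noncoding gene LOC124902502 and the LEF1 window overlaps LEF1-AS1. Reads carry no strand here, so these cannot be separated. Window placement did not follow strand. Of plus-strand genes 66.5% had 300 bp before and 700 bp after the annotated start, CTNNB1, APC, ZNRF3 and NKD1 among them. Of minus-strand genes 66.4% had 700 bp before and 300 bp after, AXIN2, RNF43, NOTUM and LEF1 among them. TCF7 and TCF7L2 had neither placement. Over all genes placed these ways the median ChIP level was similar, at 20.9 and 21.2 CPM (a unit explained below).

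Total counts over all windows were 1290223 to 2240951 for the 6 ChIP libraries and 161719 to 359276 for the 8 inputs, so inputs rest on far fewer reads. Silent genes give a measure of background, and 401 olfactory receptor windows took 0.0944 to 0.149% of the counts in 5 ChIP libraries and 0.336% in Nutlin3a replicate 1, a share within the 0.219 to 0.385% of the inputs. That library stands apart, and the ChIP to input ratios and the Nutlin3a responses are given with and without it. Of 10 colon epithelium marker genes 6 were higher in ChIP than in input by the test described below, of 5 tested blood markers none and of 4 tested mesenchyme markers none. Of all windows tested 46.3% were higher. The log2 ratio was positive at 8 of the 10 epithelial markers, and the lowest was -0.20. Summed epithelial markers ranged from 945 to 1302 CPM over the ChIP libraries, and none of the 10 was at 0 in any of them. The 5 p53 targets used to check the Nutlin3a labels were all higher in Nutlin3a than in DMSO (median log2 ratio 1.56), and 1 of them, TP53INP1, passed the threshold.

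By ChIP level alone, before any comparison with input, CTNNB1 had the most reads of the 10 and LEF1 the fewest. Levels are given in CPM, counts per library size after scaling by TMM (trimmed mean of M-values). Every window is 1000 bp, so length does not enter comparisons between genes, but background does. In the inputs the median ran from 2 reads at LEF1 to 17.5 at APC. The order given here is therefore one of reads and not of polymerase above background. In CTNNB1, the gene of beta-catenin itself, the level was 96.4 and 103 CPM in the DMSO libraries (replicates 1 and 2), 85.6 and 75.0 in Nutlin3a, 95.7 in DMSO with peptide and 94.1 in Nutlin3a with peptide. All 6 values lay above every value of APC, and their mean of 91.6 ± 9.79 CPM (SD, n = 6) exceeded 91.6% of tested windows. APC, the scaffold that holds beta-catenin for phosphorylation, had 53, 52.1, 66.5, 49.2, 41.4 and 48.6 CPM in the same order, a mean of 51.8 ± 8.28. The highest APC value was that of Nutlin3a replicate 1 and the lowest that of DMSO with peptide.

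Among the brakes, ZNRF3 led with 33.9 ± 5.89 CPM (SD, n = 6) and a range of 23.7 to 41.7. NKD1 followed with 22.3 ± 5.35 and a range of 17.8 to 32.4. RNF43, the closest relative of ZNRF3, had a mean of 20.5 ± 17.2 CPM, with a spread nearly as large as the mean. AXIN2, the most widely used readout of beta-catenin activity, had 15.1 ± 4.66 CPM and a range of 11.1 to 23.7, and its mean was higher than 49.3% of tested windows. NOTUM had 14.4 ± 3.38 CPM and a range of 9.81 to 19.8. Of the factor genes, TCF7L2, the TCF most prominent in colon epithelium, had 50.7 ± 25.0 CPM and a range of 26.3 to 82.6. TCF7 had 25.3 ± 6.16 CPM and LEF1 5.49 ± 1.14 CPM, the latter from 8 to 11 reads in each library and higher than 24.7% of tested windows. In the order of means, CTNNB1, APC, TCF7L2, ZNRF3, TCF7, NKD1, RNF43, AXIN2, NOTUM, LEF1, library ranges separated only CTNNB1 from APC and NOTUM from LEF1. ZNRF3 was above TCF7 in 6 of 6 libraries, though their ranges overlapped. APC and TCF7L2 had nearly the same mean, and APC was higher in 4 of 6 libraries. The remaining neighbours did not differ beyond their spread. In bulk chromatin, fewer cells with polymerase at a gene and less polymerase per cell cannot be told apart.

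To ask which windows held polymerase above background, ChIP was compared with input. At CTNNB1 ChIP exceeded input 5.83-fold (95% interval 3.21 to 10.6), a log2 ratio of 2.54 ± 0.44 (SE) with an adjusted p of 1.22e-07. This and the other adjusted p-values are from the quasi-likelihood test of edgeR, adjusted by Benjamini-Hochberg over every window tested, at a threshold of 0.05. In the fit of ChIP against input each window took the spread estimated across all windows and not its own. The p-values of this comparison therefore do not measure how far the libraries differ at a given gene. ZNRF3 (1.21 ± 0.46 on the log2 scale, adjusted p = 0.0193) and TCF7L2 (1.12 ± 0.44, adjusted p = 0.0245) were the other members that passed, which makes 3 of 10 higher and 0 lower. DESeq2 with the same scaling gave the same 2 counts, and at an unadjusted p under 0.05 there were 4 members, all of them higher. Such an unadjusted p was found at 10894 of all 21504 windows. Of all 21504 windows tested 46.3% were higher and 0.219% lower, so the members' share was not above that of windows at large. Their median log2 ratio was 0.65, against 0.94 for all windows.

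In this fit libraries were scaled to the olfactory receptor windows, and each value can be read as a multiple of the mean olfactory window of its library. CTNNB1 stood at 10.4 to 40.4 such multiples in the ChIP libraries, median 29.6, and at 2.09 to 7.57 in the inputs, median 5.13. The lowest ChIP value, that of Nutlin3a replicate 1, was still above the highest input. ZNRF3 had a median of 11.4 in ChIP (2.87 to 16.4) and 5.17 in input (2.51 to 6.24), and TCF7L2 12.6 (9.99 to 21.0) and 6.26 (4.13 to 8.65). TCF7L2 did not overlap between ChIP and input, and ZNRF3 overlapped only through Nutlin3a replicate 1. The share of all windows without such overlap is not given here, so this order cannot be called particular to these genes. APC had a high input level, with a median of 12.2 multiples against 15.4 in ChIP, and its log2 ratio was 0.60 ± 0.43 (adjusted p = 0.272).

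**Figure D1:**
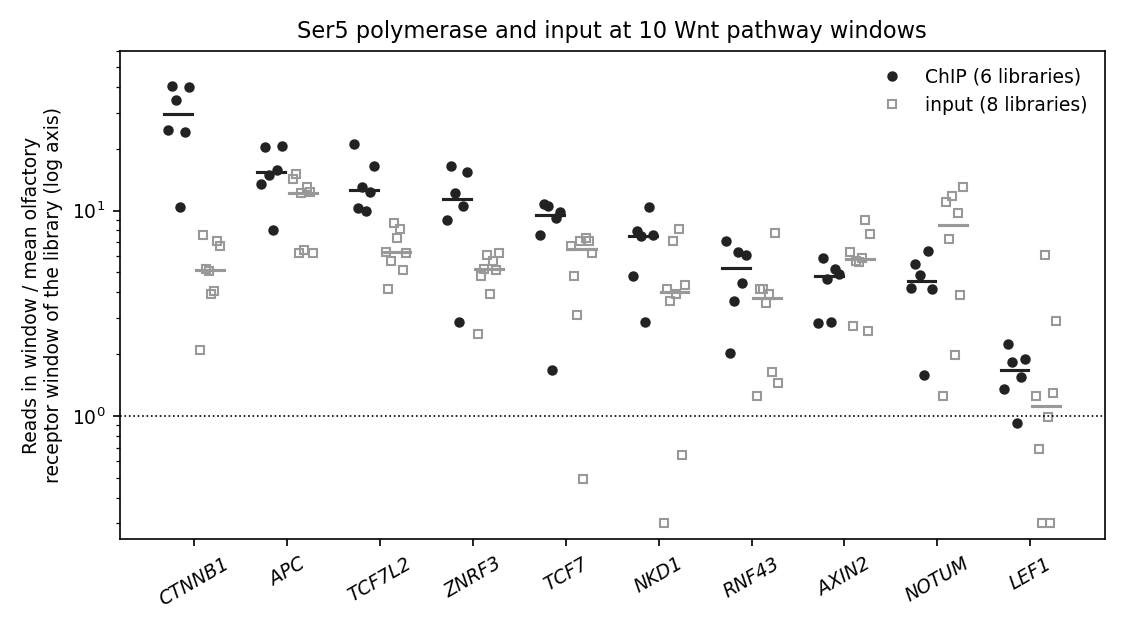
Reads in each member's window divided by the mean count of the 401 olfactory receptor windows of the same library, on a log axis, for 6 ChIP libraries (black circles) and 8 inputs (grey squares), with the median of each as a bar. The dotted line marks 1 and inputs with 0 reads (1 for NKD1, 2 for LEF1) are drawn at the lower edge. CTNNB1 is the member furthest above its inputs, with medians of 29.6 and 5.13, whereas for AXIN2 and NOTUM the input median is the higher.

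For the brakes other than ZNRF3 no gain over input passed the threshold. NKD1 had a log2 ratio of 0.99 ± 0.50 (adjusted p = 0.0983) and RNF43 of 0.53 ± 0.54 (adjusted p = 0.491). AXIN2 and NOTUM were the only members with a negative ratio, -0.34 ± 0.50 (adjusted p = 0.668) and -0.70 ± 0.49 (adjusted p = 0.263). NOTUM had 17 to 34 reads in the ChIP libraries and 3 to 27 in the inputs, which are several times shallower. TCF7 and LEF1 had log2 ratios of 0.71 ± 0.47 (adjusted p = 0.227) and 0.23 ± 0.75 (adjusted p = 0.868). For LEF1 2 of 8 inputs had 0 reads, which allows up to 3, and its interval ran from -1.25 to 1.70. Occupancy above background was thus not detectable in the LEF1 window at this depth. The RefSeq promoter entry of LEF1 lies 2332 bp outside that window, and reads there were not counted.

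How much of this holds depends on the scaling. With TMM over all 14 libraries the median of all windows moved by -0.98 on the log2 scale, to -0.04. CTNNB1 stayed higher (1.57 ± 0.25, adjusted p = 1.17e-05), ZNRF3 (0.19) and TCF7L2 (0.20) no longer passed, and AXIN2 (-1.33 ± 0.35, adjusted p = 0.00403) and NOTUM (-1.65 ± 0.39, adjusted p = 0.00147) were lower in ChIP than in input. Under TMM 25.1% of all windows were higher and 15.5% lower. Without Nutlin3a replicate 1 the log2 ratio was 2.67 at CTNNB1, 1.38 at ZNRF3, 1.15 at TCF7L2 and 1.16 at NKD1, while AXIN2 (-0.25) and NOTUM (-0.51) stayed negative. Leaving out DMSO replicate 1 (adjusted p = 0.0964) or any of 4 inputs (0.0505 to 0.0639) ended the call of TCF7L2, and leaving out DMSO replicate 2 (0.0727) or the Nutlin3a input replicate 1 (0.0647) ended that of ZNRF3. NKD1 stood at 2.46 without the DMSO input replicate 2 and at 1.48 without the input replicate 2 of Nutlin3a with peptide. TCF7 stood at 1.40 without the Nutlin3a input replicate 2. CTNNB1 passed in every one of these fits.

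RNF43 and TCF7L2 were the members with the widest gap between replicate 1 and replicate 2. RNF43 had 28.0 CPM in DMSO replicate 1 and 52.0 in Nutlin3a replicate 1, against 5.15 in DMSO, 13.8 in Nutlin3a, 10.1 in DMSO with peptide and 14.3 in Nutlin3a with peptide, all replicate 2. In reads these were 58 and 68 against 10, 23, 18 and 32. TCF7L2 had 82.5 and 82.6 CPM in the replicate 1 libraries of DMSO and Nutlin3a, and 26.3, 38.4, 35.8 and 38.8 in the replicate 2 libraries in the same order. For both genes every replicate 1 library was above every replicate 2 library. APC shows the same order but by a hair, with 53 CPM as the lower replicate 1 value and 52.1 as the highest of replicate 2. Of all windows 15.7% had this order.

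**Figure D2:**
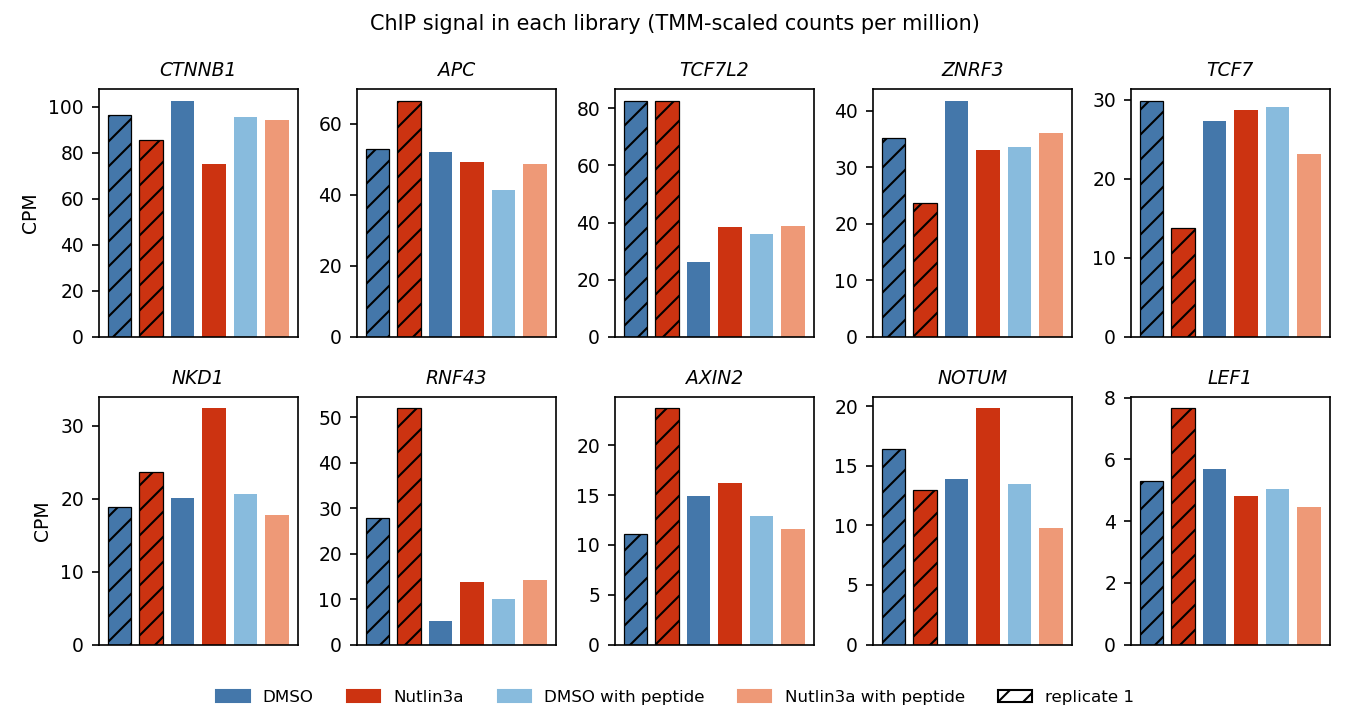
TMM-scaled CPM of each member in each of the 6 ChIP libraries, 1 bar a library, on separate axes that start at 0. Hatched bars are replicate 1. RNF43 and TCF7L2 are the members in which the hatched bars tower over the rest, at 28.0 and 52.0 CPM and at 82.5 and 82.6 CPM.

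The comparison of replicate numbers was added after these values were seen, as a term beside the 4 groups in the fit of the 6 ChIP libraries. RNF43 was 4.34-fold higher in replicate 1 (95% interval 2.67 to 7.05; log2 2.12 ± 0.36, edgeR adjusted p = 7.09e-07) and TCF7L2 2.60-fold (1.88 to 3.58; log2 1.38 ± 0.24, adjusted p = 1.31e-06). These 2 of 10 members were higher and none was lower, where 2.62% of all 25901 windows tested were higher and 0.649% lower. The fit left 1 residual degree of freedom, so its spread is the one estimated across all windows. The gap was present in both treatments, at 2.22 under DMSO and 1.83 under Nutlin3a for RNF43 and at 1.61 and 1.08 for TCF7L2 (log2 ratios of 1 library to 1). No other member differed by more than 0.35 in the fit, and their smallest adjusted p was 0.585. In the inputs RNF43 had 3, 8, 8 and 12 reads in replicate 1 and 6, 7, 2 and 3 in replicate 2, which overlap.

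Background moved with the replicate number. The olfactory receptor share was 0.149% and 0.336% in the replicate 1 ChIP libraries and 0.0944 to 0.128% in those of replicate 2. Scaling to those windows moved the median of all windows by -1.01 on the log2 scale. On that scale RNF43 stood at 1.09 (adjusted p = 0.180) and TCF7L2 at 0.36 (adjusted p = 0.686), neither past the threshold, with 0.425% of all windows higher and 11.2% lower. Under TMM, where 2.62% of all windows were higher in replicate 1 and 0.649% lower, 87 other Wnt genes were tested. Of these 0 were higher and 1 was lower, the ligand gene WNT7A (log2 -1.62, edgeR adjusted p = 0.0434). Their median was -0.30, with 18 of 87 positive and 10 at an unadjusted p under 0.05. Such a p was found at 3970 of all 25901 windows.

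Nutlin3a did not change Ser5 polymerase detectably at any of the 10 genes. In edgeR's quasi-likelihood test of Nutlin3a against DMSO without peptide, 0 members were higher and 0 lower, and 0 had an unadjusted p under 0.05. Such a p was found at 601 of all 25901 windows. DESeq2 and limma-voom likewise called 0. Of all windows 0.00772% were called higher and 0% lower, so calls were rare everywhere. The members' median log2 ratio was 0.13, with 7 of 10 positive, against 0.04 for all windows.

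At the signal carrier itself the ratio was negative. CTNNB1 had a log2 ratio of -0.31 ± 0.22 (95% interval -0.77 to 0.15, adjusted p = 0.982), and both Nutlin3a libraries (85.6 and 75.0 CPM) were below both DMSO libraries (96.4 and 103 CPM). It was the only member lower in each of the 3 Nutlin3a to DMSO pairs, at -0.17 in replicate 1, -0.45 in replicate 2 and -0.02 with peptide, an order that 13.2% of all windows had. As a fold the interval runs from 0.587 to 1.11. APC stood at 0.13 ± 0.25 (interval -0.40 to 0.66), and its Nutlin3a libraries lay on both sides of the DMSO values.

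The brakes showed positive and negative ratios. AXIN2 had 11.1 and 14.9 CPM in DMSO and 23.7 and 16.2 in Nutlin3a, which do not overlap. Its log2 ratio was 0.61 ± 0.44 (interval -0.33 to 1.55), and the pairs gave 1.03 in replicate 1, 0.11 in replicate 2 and -0.14 with peptide. NKD1 likewise did not overlap, with 18.8 and 20.1 CPM in DMSO and 23.7 and 32.4 in Nutlin3a. Its ratio was 0.53 ± 0.36 (interval -0.23 to 1.30), and the pair with peptide gave -0.20. ZNRF3 lay the other way, at 35.2 and 41.7 CPM in DMSO and 23.7 and 33.0 in Nutlin3a, with a ratio of -0.43 ± 0.31 (interval -1.08 to 0.22) and 0.10 in the pair with peptide. Both Nutlin3a libraries were above both DMSO libraries in 16.1% of all windows and below both in 15.7%, and 2 of 10 members had each order. NOTUM stood at 0.12 ± 0.45 with pairs of -0.31 and 0.48.

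RNF43 had the largest positive ratio, 0.95 ± 0.62 (interval -0.35 to 2.26). Its values follow the replicate number, yet each pair within a number was positive, at 0.87, 1.25 and, with peptide, 0.46. TCF7L2 was the other member with no negative pair, at 0.0021, 0.53 and 0.11, and 14.6% of all windows were positive in all 3. Without DMSO replicate 1, RNF43 passed the threshold at 2.64 (adjusted p = 0.0147, with 0.349% of all windows higher). The DMSO library that then remained, at 5.15 CPM, held the lowest RNF43 value of all. Without Nutlin3a replicate 1 the ratio was -0.28. The ratio thus changed sign with which replicate 1 library was left out, and within replicate numbers it did not. For the other brakes the ratio without Nutlin3a replicate 1 was 0.31 at AXIN2, 0.73 at NKD1, -0.22 at ZNRF3 and 0.38 at NOTUM. It was -0.41 at CTNNB1, -0.098 at APC, -0.51 at TCF7L2 and -0.19 at LEF1. The ratios of the other factor genes were 0.13 ± 0.41 for TCF7L2, -0.41 ± 0.38 for TCF7 and 0.17 ± 0.79 for LEF1. The TCF7 ratio rests on Nutlin3a replicate 1, at 13.8 CPM against 23.2 to 29.9 in the 5 other libraries, and without it the ratio was 0.0056.

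**Figure D3:**
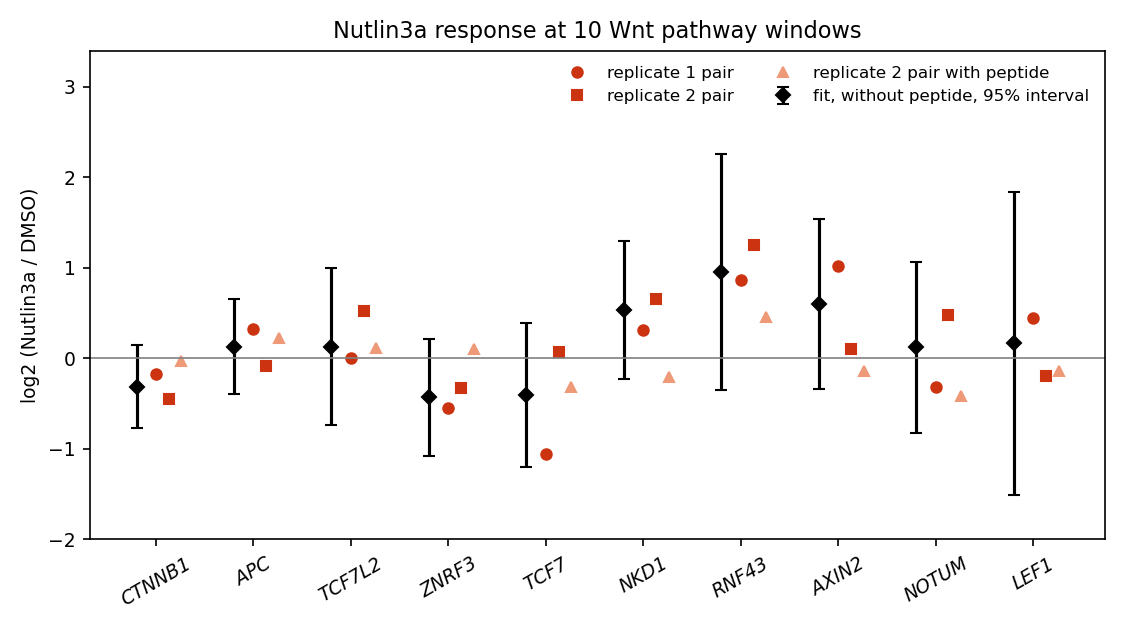
Log2 ratio of Nutlin3a to DMSO for each member, as the edgeR estimate without peptide with its 95% interval (diamonds) and as single-library ratios for replicate 1 (circles), replicate 2 (squares) and the pair with peptide (triangles). All 10 intervals include 0. The 3 pairs of RNF43 are all positive, at 0.87, 1.25 and 0.46, and those of CTNNB1 all negative, at -0.17, -0.45 and -0.02.

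Scaling bears on these signs. Under the scaling to olfactory receptor windows the median of all windows moved by -0.57, and 2 of 10 members were positive. Under the constants with which the authors scaled each library it moved by 0.49, and 9 of 10 were positive. The constant of Nutlin3a replicate 1 was 1.82, against 0.595 to 0.748 for the other ChIP libraries. Under either scaling 0 members passed.

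With peptide, 1 Nutlin3a library was set against 1 DMSO library, and this pair was not tested by itself. The log2 ratios ran from -0.41 at NOTUM to 0.46 at RNF43, with a median of -0.08 over the members and -6.2e-05 over all windows. NOTUM had 13.4 CPM in DMSO with peptide and 9.81 in Nutlin3a with peptide, its lowest value in any library. CTNNB1 was level, at 95.7 and 94.1 CPM. The difference between the responses with and without peptide was tested in the fit of 6 libraries, where each lone peptide library was assumed to vary like the pairs. In edgeR 0 of 10 members were called in either direction, with 0% of all windows called, 0 members at an unadjusted p under 0.05 and 0 calls by DESeq2 or limma-voom. Such an unadjusted p was found at 273 of all 25901 windows. Differences ran from -0.76 ± 0.78 at AXIN2 (interval -2.40 to 0.89) to 0.53 ± 0.52 at ZNRF3 (interval -0.56 to 1.63). The next lowest was NKD1, at -0.75 ± 0.63 (interval -2.08 to 0.58). For CTNNB1 the difference was 0.29 ± 0.37 (interval -0.49 to 1.07). Without Nutlin3a replicate 1 the differences were -0.47 at AXIN2, -0.95 at NKD1, 0.32 at ZNRF3 and 0.38 at CTNNB1. The median over members was -0.18, against -0.01 over all windows.

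The peptide by itself was compared with no peptide under each treatment. No member was called under DMSO or under Nutlin3a, where 0% of all windows were called in either direction. The count at an unadjusted p under 0.05 was 0 of 10 members in both, and DESeq2 and limma-voom called 0. Of all 25901 windows 393 had such a p under DMSO and 632 under Nutlin3a. Under DMSO the ratios of peptide to none ran from -0.72 ± 0.83 at RNF43 to 0.09 ± 0.45 at NKD1, with a median of -0.15 against -0.02 over all windows. Under Nutlin3a they ran from -1.18 ± 0.78 at RNF43 to 0.34 ± 0.37 at ZNRF3, with a median of -0.54 against -0.02, and 3 of 10 were positive.

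Replicate 1 exists only without peptide, so in these ratios the peptide and the replicate number cannot be told apart. RNF43 and TCF7L2, the members that differed by replicate number, had pooled ratios of -0.72 and -0.61 under DMSO, the 2 lowest of the 10, and of -1.18 and -0.62 under Nutlin3a. Within replicate 2, where 1 library is compared with 1, RNF43 was 0.84 under DMSO and 0.05 under Nutlin3a, and TCF7L2 0.43 and 0.02. These 4 values have the opposite sign to the pooled ones. The pooled and the within-replicate ratios share the peptide library and 1 of 2 controls. Under Nutlin3a the other brakes were at -0.77 ± 0.55 pooled and -0.45 within replicate 2 (AXIN2), -0.66 ± 0.45 and -0.82 (NKD1), -0.75 ± 0.57 and -0.94 (NOTUM) and 0.34 ± 0.37 and 0.13 (ZNRF3). Among the factor genes TCF7 changed sign, from 0.10 ± 0.46 pooled to -0.30 within replicate 2, and LEF1 was at -0.46 ± 0.98 and -0.09. Of the brakes, then, AXIN2, NKD1 and NOTUM were negative within replicate 2 under Nutlin3a and ZNRF3 and RNF43 positive. Only ZNRF3 among them had passed the test above input. Under DMSO, AXIN2, NKD1, NOTUM and ZNRF3 stood at -0.20, 0.04, -0.05 and -0.30 within replicate 2. CTNNB1 was -0.06 ± 0.26 under DMSO (interval -0.60 to 0.49) and 0.23 ± 0.26 under Nutlin3a (interval -0.32 to 0.78).

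**Figure D4:**
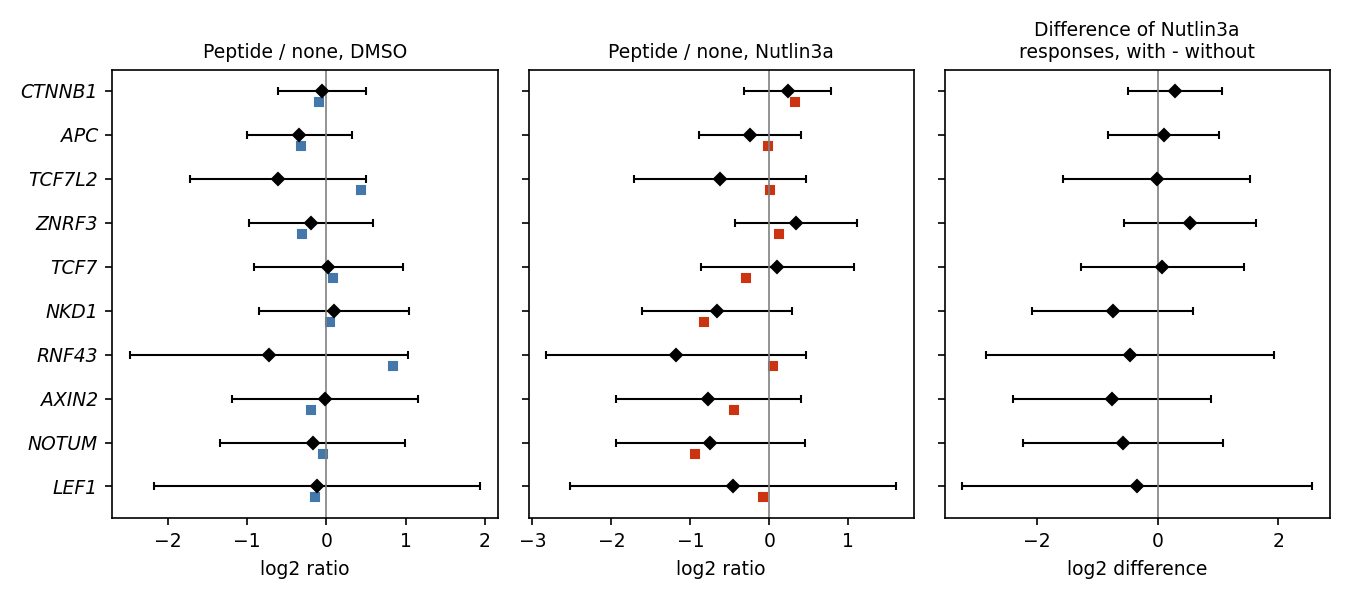
Log2 ratios of peptide to no peptide under DMSO (left) and under Nutlin3a (middle), and the difference of the Nutlin3a responses with and without peptide (right), as edgeR estimates with 95% intervals (diamonds). Squares are ratios of 1 replicate 2 library to 1. Every interval includes 0, and RNF43 and TCF7L2 are the members whose squares lie far to the right of the diamonds in the left panel, at 0.84 and 0.43.

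The rest of the pathway was read from a list of 88 further Wnt genes in 6 roles. In ChIP against input 28 of the 75 tested were higher and 0 lower, with a median log2 ratio of 0.67, close to the 0.65 of the 10 members and below the 0.94 of all windows. Of all windows tested 46.3% were higher. Counts by role are set out next, and differences between roles were not tested. Among transducers and destruction complex genes 11 of 14 were higher (median 1.57), led by DVL2 at 3.12 ± 0.43, CSNK1A1 at 2.28 ± 0.44 and DVL1 at 2.12 ± 0.48, which encode Dishevelled proteins and casein kinase 1 alpha. Among ligands and genes for their secretion 3 of 22 were higher (median 0.18), with WNT9A at 1.86 ± 0.44, the acyltransferase gene PORCN at 1.76 ± 0.51 and WNT16 at 1.08 ± 0.43, the last named after its value was seen. WNT9B stood at 1.80 ± 0.85 and did not pass (adjusted p = 0.0716). Of the receptors 4 of 13 were higher (median 0.87), LRP6, LRP5 and FZD6 leading at 1.30, 1.27 and 1.27. Of the nuclear factors it was 3 of 8 (median 0.80). These were PYGO2 at 3.30 ± 0.42, BCL9L at 3.16 ± 0.43 and the co-repressor gene TLE3 at 1.38 ± 0.44. The products of PYGO2 and BCL9L belong to the complex that beta-catenin forms at target genes.

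The secreted or membrane inhibitors were split. DKK1, which blocks LRP5 and LRP6, had the highest ratio of the whole list, 4.96 ± 0.43 (edgeR adjusted p = 6.04e-28), with a median of 186 multiples of the olfactory window in ChIP and 6.40 in input. KREMEN2, a receptor for DKK1, followed at 1.92 ± 0.43. Of the 5 other inhibitors tested none passed, WIF1 being next at 0.32 ± 0.61. Among 11 other targets 5 were higher (median 0.90), led by MYC at 4.30 ± 0.42, CCND1 at 3.80 ± 0.43 and CD44 at 2.55 ± 0.43. The windows of DKK1, PYGO2, BCL9L, PORCN and FZD6 overlap those of PRKG1-AS1, LOC101928120, MIR4492, LOC101927635 and LOC105369147, so their reads cannot be given to 1 gene. The levels at MYC, DKK1 and CCND1 were thus far above those of AXIN2, NOTUM and LEF1, with ChIP medians of 142, 186 and 77.3 multiples against 4.79, 4.52 and 1.68. Under TMM the list counted 15 higher and 18 lower, and DKK1 (3.93), MYC (3.29), CCND1 (2.78), PYGO2 (2.30), BCL9L (2.10) and DVL2 (2.08) stayed higher. The 13 genes not tested, among them SFRP1, SFRP2, WNT5A and PROX1, had at most 24 reads in any library.

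**Figure D5:**
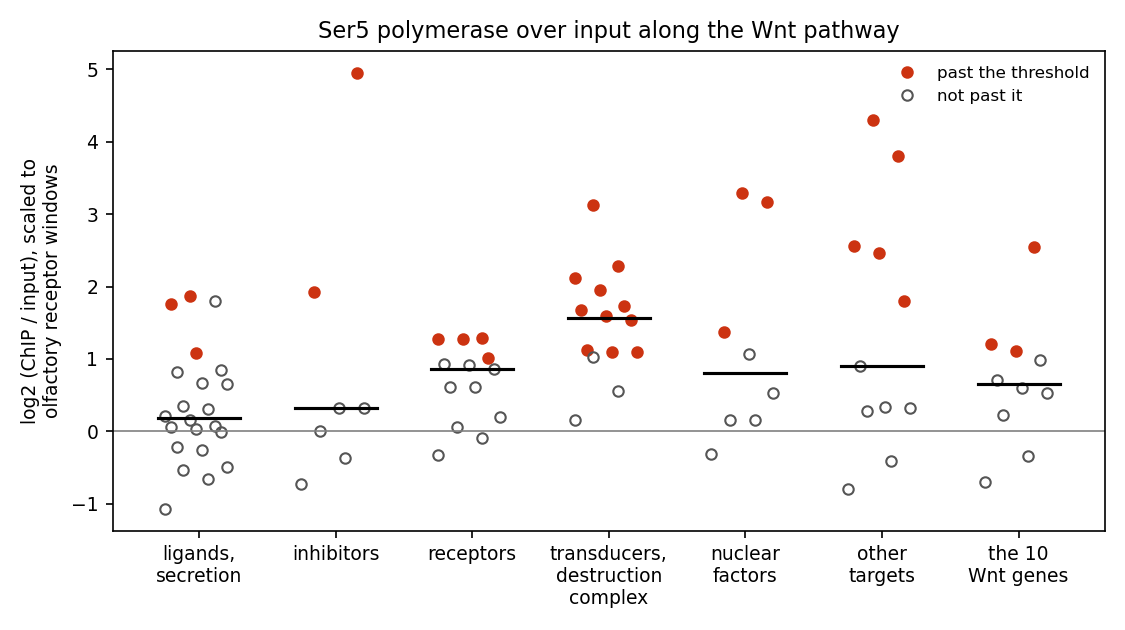
Log2 ratio of ChIP to input, scaled to olfactory receptor windows, for the tested Wnt genes by role, each circle 1 gene, filled where past the threshold, with the median of each role as a bar. Transducers and destruction complex genes have the highest median, 1.57, and ligands the lowest, 0.18. The 10 members at the right have a median of 0.65.

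None of 87 other Wnt genes tested was called by edgeR, DESeq2 or limma-voom in the 4 comparisons of the ChIP libraries. At an unadjusted p under 0.05 there were 3 for Nutlin3a against DMSO, 3 for the difference, 3 for the peptide under DMSO and 2 under Nutlin3a. Of all 25901 windows 601, 273, 393 and 632 had such a p in the same order. The genes named next are thus the extremes of a list and not findings. For Nutlin3a the smallest p-values belonged to WNT11 (1.11 ± 0.51) and RSPO2 (1.25 ± 0.58) among positive ratios and to WNT16 (-0.58 ± 0.26) and TNKS (-0.56 ± 0.27) among negative ones, all with an adjusted p of 0.982. For the peptide they were FZD2 (1.64 ± 0.58), RSPO2 (1.54 ± 0.67), AMER1 (-0.90 ± 0.38) and AXIN1 (-1.37 ± 0.66) under DMSO. Under Nutlin3a they were BMP4 (0.68 ± 0.26), WNT16 (0.79 ± 0.31), WLS (-0.91 ± 0.44) and WNT8B, which had 0 to 14 reads. For the difference they were AXIN1 (1.91 ± 0.89), BMP4 (0.79 ± 0.37), RSPO2 (-2.19 ± 0.97) and RSPO1 (-2.69 ± 1.28).

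The pattern of AXIN2 over the 6 ChIP libraries was closest to those of TMEM14A (Pearson r = 0.988 on log2 CPM), AP1G2 (0.986) and SRGAP2-AS1 (0.969), out of 12950 windows of more than median level. In all, 29 windows had r above 0.9. With 6 libraries, of which Nutlin3a replicate 1 holds the highest AXIN2 value, this is a description only.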

How the data were processed

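The deposited table held raw read counts per window of 1000 bp, 1 window per gene, for 6 ChIP and 8 input libraries, aligned to hg38 according to the submitters' processing notes. Which aligner, counter and filters made them is not given in the sources used here. The deposited scaled signal of each ChIP library was its count times 1 constant, whose derivation was not given, and it served only as an alternative scaling. Groups came from the titles and treatment labels. Tests used the quasi-likelihood fit of edgeR 4.0.16 (glmQLFit, glmQLFTest; R 4.3.3), with filterByExpr at a minimum count of 10, Benjamini-Hochberg adjustment over all windows and a threshold of 0.05. The 6 ChIP libraries were fitted as 4 group means with TMM scaling (25901 windows, 2 residual and 14.7 prior degrees of freedom, biological coefficient of variation 26.0%). ChIP was compared with input over 14 libraries as the mean of 4 ChIP groups minus the mean of 4 input groups, scaled to the summed counts of 401 olfactory receptor windows (21504 windows). Errors are standard errors of the fit unless called SD. Single-library ratios used log2 CPM with a prior count of 2. DESeq2 1.42.0 and limma 3.58.1 (voom) were alternatives, as were other scalings and filters and leaving out each library of a group of 2. Intervals cover the spread in the fit, reads carried no molecular identifiers and the inputs are several times shallower than the ChIP libraries. Replicate numbers are not said to mark a shared batch, so they were not blocked. The fits were checked on simulated counts. Members, lists and tests were chosen with earlier results of these data known. All members are named. Of the other Wnt genes, those with the smallest p or, for ChIP against input, the 3 highest of each role are named. For AXIN2 the 3 windows of most similar pattern are named. RefSeq (GRCh38.p14) gave annotation and promoter sequences, and 6 of 10 members had a promoter entry.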

Additional observations from a re-analysis of the deposited data

How the results depend on the processing

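Alternatives were run on every comparison, changing 1 choice at a time. Scaling to olfactory receptor windows in the ChIP comparisons and the whole comparison of replicate numbers were added after the data were seen. Counts of called members stayed at 0 in the 4 ChIP comparisons under all alternatives except Nutlin3a against DMSO without DMSO replicate 1 (range 0 to 1 when leaving out each library). No uncalled value that changed sign passed the threshold in those comparisons. In ChIP against input 3 members were higher and 0 lower, with 28 and 0 of the other Wnt genes. Those counts became 1, 2, 15 and 18 under TMM and 1, 3, 10 and 23 under total counts, where 16.7% of all windows were higher and 25.3% lower. Among windows whose mean count reached 50 they were 1 higher among the 2 members left and 17 of 17 others. That mean runs over ChIP and input libraries alike, and the inputs are far shallower. Windows therefore stay in mainly through high ChIP counts, so this filter cannot test a gain over input. With DMSO without peptide alone 1 member and 11 others were higher. The share of all windows called is not given here for that fit, for the filter or for fits that leave out a library. Leaving out each library gave 1 (without the Nutlin3a input replicate 1) to 4 members higher and 0 to 2 others lower. A lone library left in a group was assumed to vary like the other groups. For the replicate numbers the count of 2 became 0 with olfactory receptor scaling and 1 among windows whose mean count reached 50, where RNF43 is not tested.

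Signs that changed were as follows (log2), the cause not tested. In ChIP against input TMM and total counts moved the median of all windows by -0.98 and -1.27, and the sign changes listed under them come with that common shift. ChIP against input gave APC -0.37, RNF43 -0.32, LEF1 -0.72, TCF7 -0.32 and WIF1 -0.69 under TMM. Under total counts it gave APC -0.66, RNF43 -0.62, ZNRF3 -0.11, NKD1 -0.28, LEF1 -1.01, TCF7 -0.61, TCF7L2 -0.096, LRP6 -0.0012, LRP5 -0.012, FZD6 -0.0038 and WIF1 -0.98. Leaving out libraries gave LEF1 -0.025 to 1.30. Nutlin3a against DMSO gave CTNNB1 0.23 and ZNRF3 0.0015 under the authors' constants. Under olfactory receptor scaling it gave APC -0.52, AXIN2 -0.11, NOTUM -0.31, LEF1 -0.55 and TCF7L2 -0.50. Leaving out libraries gave APC -0.098 to 0.35, RNF43 -0.28 to 2.64, NOTUM -0.21 to 0.38, LEF1 -0.19 to 0.49, TCF7 -1.04 to 0.0056 and TCF7L2 -0.51 to 1.19.

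The difference of responses gave TCF7 -0.0014 under total counts, APC -0.062 under the authors' constants and -0.067 under the stricter filter (mean count 50). Under olfactory receptor scaling, which moved the median of all windows by 0.80, it gave AXIN2 0.20, RNF43 0.52, NOTUM 0.092, LEF1 0.61 and TCF7L2 0.85. Leaving out libraries gave APC -0.12 to 0.32, RNF43 -2.14 to 0.77, LEF1 -0.66 to 0.015, TCF7 -0.34 to 0.71 and TCF7L2 -1.07 to 0.62. The peptide under DMSO gave AXIN2 0.033 under total counts and 0.010 in limma-voom, and CTNNB1 0.011 under that filter. It gave NKD1 -0.14 and TCF7 -0.21 under the authors' constants (median of all windows moved by -0.23), and CTNNB1 0.092, AXIN2 0.11, NOTUM 0.012 and LEF1 0.042 under olfactory receptor scaling (moved by 0.16). Leaving out libraries gave AXIN2 -0.21 to 0.22, RNF43 -1.46 to 0.96, TCF7 -0.030 to 0.092 and TCF7L2 -1.19 to 0.45. The peptide under Nutlin3a gave CTNNB1 -0.13 and TCF7 -0.055 under the authors' constants (moved by -0.31). Under olfactory receptor scaling (moved by 0.95) it gave APC 0.80, AXIN2 0.30, RNF43 0.17, NKD1 0.21, NOTUM 0.10, LEF1 0.65, TCF7L2 0.57 and WLS 0.078. Leaving out libraries gave RNF43 -1.87 to 0.042, TCF7 -0.32 to 0.74 and TCF7L2 -1.10 to 0.0090.

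With the replicate block, that is the replicate number as a term, 39 windows were higher in Nutlin3a than in DMSO in place of 2, and no member was called in any of the 4 ChIP comparisons. Deviations of same-numbered libraries from their group means correlated at 0.45 over windows, but with only these 2 pairs and no label for the number this is a hint from the data. The replicate block turned the peptide ratio under DMSO to 0.73 for RNF43, 0.28 for TCF7L2, 0.023 for AXIN2, -0.045 for NKD1, 0.012 for LEF1 and -0.16 for TCF7. Under Nutlin3a it turned RNF43 to 0.18, TCF7L2 to 0.17 and TCF7 to -0.049. Depth limits the LEF1 window most, at 8 to 11 reads per ChIP library, and the inputs, at 1.23 to 2.39 reads per olfactory receptor window.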
